A study of Mus musculus and synthetic construct with 3 samples.

Results

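Adipocyte hexagons were described in Seq-Scope sections of the mouse suprarenal aorta. Seq-Scope captures RNA from a tissue section on a surface of densely packed barcodes, and the barcodes were pooled here into hexagons with sides of 12 µm, each a small region that can hold several cells or part of one. A hexagon was taken as an adipocyte hexagon when it held 3 or more unique molecular identifiers (UMIs, counted molecules) of Cfd, Adipoq, Fabp4, Retn, Cidec and Plin1 together. Of 11656 hexagons with 50 or more genes inside the 20 aortic sections, 529 (4.54%) met this rule. All mice were male Apoe-/- animals, listed as 16 weeks old and kept on a normal diet, and each received either saline (control) or angiotensin II (AngII) from an osmotic minipump for 4 weeks. The AngII animals on the array had developed an abdominal aortic aneurysm (AAA), so that infusion and aneurysm cannot be told apart. Loss of apolipoprotein E was shared by both groups. The mouse and condition of a section were read from the study's own section names, which give control mice C1, C2 and C3 and AAA mice A1, A2 and A3 with 10 sections per condition.

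Adipocytes of the perivascular fat surround the adventitia of the aorta. White adipocytes keep triglyceride in 1 large droplet, take up fatty acids released by lipoprotein lipase, and free them again through adipose triglyceride lipase and hormone-sensitive lipase. Brown and beige adipocytes carry many small droplets and many mitochondria, and burn fat for heat through the uncoupling protein Ucp1. Both kinds secrete proteins, among them the complement protease adipsin (Cfd) and adiponectin (Adipoq).

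The counts were shallow, and the adipocyte hexagons were spread unevenly over the animals. The 529 hexagons held 68786 of the 1037203 UMIs in kept hexagons, with a pooled median of 112 UMIs against 75 in the others. Mouse A1 gave 323 of them, A2 gave 86, A3 gave 60 and C1 gave 53, whereas C2 gave 5 and C3 gave 2. The C2 and C3 hexagons held 434 and 283 UMIs in all, so that values for single genes are given below for C1, A1, A2 and A3. The control values therefore came almost wholly from mouse C1, and 40 of its 53 adipocyte hexagons lay in 1 section, C1-1. In A2, 81 of 86 lay in section A2-3. In C3, 1 of the 2 lay 13 µm from the border where sections C3-1 and A3-1 touch. All levels below are CPM, the UMIs of a gene per 1000000 UMIs of genes outside the rule, which set the rule genes apart from the total they are compared with. In pooled hexagons a lower level of a marker can come from fewer cells of a type or from less RNA per cell, and these cannot be told apart.

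Among the rule genes Cfd dominated. Cfd (chr10:79890853-79892655, plus strand, GRCm38) supplied 2442 of the rule-gene UMIs in adipocyte hexagons (73.7%) and was found in 513 of them (97.0%). Fabp4, the fatty acid binding protein of adipocytes, supplied 474 UMIs and was found in 280 hexagons (52.9%). Cidec, which fuses lipid droplets, was found in 108 hexagons (20.4%), Adipoq in 100 (18.9%), resistin (Retn) in 65 (12.3%) and the droplet coat protein Plin1 in 40 (7.56%). No hexagon held all 6 genes, 255 held 2 of them and 136 held 1. These values describe the rule itself and are not evidence for it.

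The makeup of the rule genes varied between animals. Cfd stood at 18886 CPM in the adipocyte hexagons of C1, 42493 in A1, 26432 in A2 and 40124 in A3. Fabp4 went the other way, with 10792 in C1, 6148 in A1, 9854 in A2 and 7126 in A3. Adipoq stood at 2563 in C1, 1986 in A1, 1159 in A2 and 1239 in A3. The Cfd level of C1 lay below all 3 AAA mice, and its Fabp4 and Adipoq levels lay above them. Because these genes chose the hexagons, the order is a description without a test.

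Cfd was also found in hexagons marked by genes of other cell types. Of 1199 hexagons with 3 or more UMIs of the contractile genes Acta2, Tagln, Myh11, Myl9 and Cnn1, 217 (18.1%, 95% Wilson interval 16.02% to 20.38%, counting error only) held a Cfd UMI at a median depth of 91 UMIs. In hexagons outside the rule the share was 16.8% at a median of 75 UMIs. A single Cfd UMI was thus at the background share, and only 15 of the contractile hexagons (1.25%) reached the 3 UMIs of the rule. Of the 529 adipocyte hexagons, 15 (2.84%) were also contractile by this count, 59 (11.2%) held 3 or more UMIs of Col1a1, Col1a2, Col3a1, Dcn and Lum, and 9 (1.70%) held 3 or more UMIs of 7 macrophage genes.

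The label was checked against genes that the rule did not use. A group of 61 genes was formed from lists for lipid droplets and lipolysis, fatty acid uptake, lipid synthesis and white adipocytes. Its summed level was 13813 CPM in the 8414 hexagons with no rule-gene UMI, 15291 with 1 and 21557 with 2, just outside the threshold. It was 36171 in the 143 hexagons with 3 UMIs, just inside, then 43936 with 4, 51986 with 5 to 9, and 58912 in the 85 hexagons with 10 or more. Within single mice the steps inside the threshold were less even, with 55267 at 3 UMIs and 45662 at 4 in C1, and 47597 at 4 and 39857 at 5 to 9 in A2. Median depth ran from 73 to 205 UMIs over the same classes, though between 2 and 3 rule-gene UMIs it went from 88 to 84. The 132 members with Cfd as the only rule gene stood at 38653, against 52132 in the 393 members with 2 or more rule genes. The genes of fat cells thus stood with the rule genes, and the name adipocyte hexagons was kept.

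**Figure D1:**
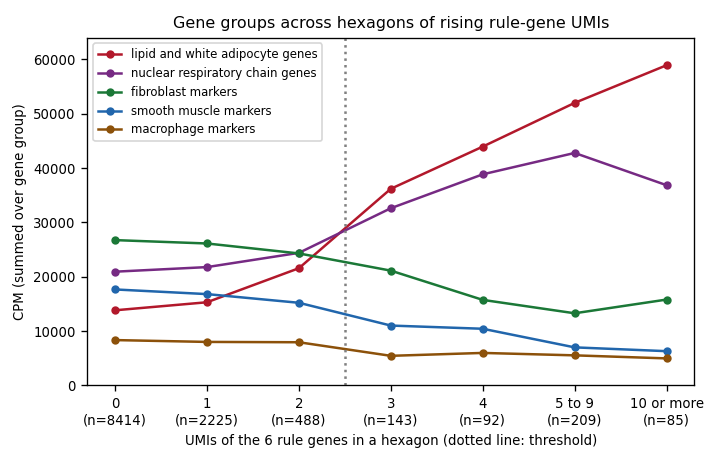
Summed CPM of 5 gene groups (vertical axis) in kept hexagons of all mice, grouped by the UMIs of the 6 rule genes they held (horizontal axis, with the number of hexagons in each class). The dotted line is the threshold of 3 UMIs; the lipid and white adipocyte genes stand at 21557 just outside it and 36171 just inside, while fibroblast markers stand at 24277 and 21111.

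For single genes the ratio of pooled levels in adipocyte over other hexagons is given with the value of each mouse, and no test, since the rule made this contrast. Of 6548 genes with 30 or more UMIs in kept hexagons, 749 (11.4%) were at least 2-fold higher in adipocyte hexagons and 926 (14.1%) at least 2-fold lower. A further count asked for the same direction in each of the 4 mice with 50 or more members, which 266 genes (4.06%) met for higher levels and 1268 (19.4%) for lower levels. A mouse with 0 UMIs of a gene in its adipocyte hexagons and some elsewhere was counted as lower. Ncam1, with 2 UMIs over all adipocyte hexagons, thus counted as lower in all 4 mice. The higher and lower counts are therefore not alike, and the excess of lower genes is not read as a result. The median log2 ratio of all 6548 genes was 0.03.

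Genes that bring fatty acids into the cell stood out. Of 10 measured genes for fatty acid uptake and binding, 9 were at least 2-fold higher, 0 were 2-fold lower, and the median log2 ratio was 2.02. Lpl, the lipoprotein lipase that frees fatty acids from circulating lipoproteins (chr8:68880491-68907448, plus strand), stood at 4587 CPM in the adipocyte hexagons of C1, 3642 in A1, 2203 in A2 and 4957 in A3. In the other hexagons of the same mice it lay between 624 and 828, so that the ranges did not overlap. Its pooled log2 ratio was 2.49. The fatty acid transporter Cd36 had a pooled log2 ratio of 1.81 and the acyl-CoA synthetase Acsl1 one of 2.50. Dbi, which binds acyl-CoA, stood at 2293 in C1, 3854 in A1, 3826 in A2 and 5112 in A3, against 1046 to 1403 in other hexagons. Acadm, a dehydrogenase of fatty acid oxidation, had a log2 ratio of 1.98 on 34 UMIs.

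Lipolysis and lipid droplet genes were higher too. Of 12 measured genes, 10 were at least 2-fold higher and 0 were 2-fold lower, with a median log2 ratio of 2.06. Pnpla2, the adipose triglyceride lipase that starts the breakdown of triglyceride, stood at 2293 CPM in C1, 1348 in A1, 580 in A2 and 1394 in A3. In the other hexagons it lay between 203 and 351. Hormone-sensitive lipase (Lipe) had a log2 ratio of 2.63 on 63 UMIs and was higher in all 4 mice, with the lowest ratio in C1 (1.01). Plin4, a droplet coat protein, was also lowest in C1, with 0.70 there and between 2.52 and 2.72 in the AAA mice. Cavin1, which builds caveolae and is not confined to fat, had a log2 ratio of 0.12.

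Genes that make fat followed. Of 21 measured lipid synthesis genes, 17 were at least 2-fold higher and 0 were 2-fold lower, and the median log2 ratio was 1.77. Scd1, the stearoyl-CoA desaturase, stood at 4991 in C1, 6125 in A1, 8347 in A2 and 6816 in A3, against 2284 to 2779 CPM in other hexagons. Thrsp, a regulator of lipogenesis, had a pooled log2 ratio of 2.74, and Dgat2, which makes triglyceride, one of 2.66. Pck1, used in adipocytes to make the glycerol of triglyceride, stood at 2833 in C1, 662 in A1, 1159 in A2 and 1549 in A3. Fatty acid synthase (Fasn) had a pooled log2 ratio of 1.77, but in C1 it rested on 2 UMIs and its log2 ratio there was −0.02, against 1.60 to 2.09 in the AAA mice.

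The genes with the largest ratios included several known from white fat. By the fixed rule (30 or more UMIs in adipocyte hexagons and higher in at least 5 of 6 mice), 38 of 319 genes qualified. Ifi27l2a led them with a log2 ratio of 3.00 and stood at 3777 CPM in C1, 2436 in A1, 2782 in A2 and 1239 in A3, against 213 to 452 elsewhere. The carbonic anhydrase Car3 (chr3:14863512-14872523, plus strand), a protein abundant in mouse adipocytes, had a ratio of 2.74 and was even across animals, with 3507 in C1, 3240 in A1, 3130 in A2 and 2479 in A3. Slc1a3, a glutamate transporter, had 2.91 and Cyp2e1, a cytochrome P450, had 2.38. Glutamine synthetase (Glul) had 2.00 and was higher in C1, A1, A2 and A3, as were Cdo1 (1.81), which oxidises cysteine, and Tob1 (2.17), an antiproliferative protein. In C2 and C3 each of these genes had only 1 or 2 UMIs. A single UMI stood at 2421 CPM in C2 and 3610 in C3, so it gives no direction there. The count of 5 of 6 mice in the fixed rule shares this limit. Of the 9 measured white adipocyte genes, 7 were at least 2-fold higher, with a median log2 ratio of 1.94.

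Secreted proteins were split. Of 11 measured adipokines and secreted proteins, 4 were at least 2-fold higher and 1 at least 2-fold lower, with a median log2 ratio of 0.75. Haptoglobin (Hp, chr8:109575128-109579172, minus strand), an acute phase protein that adipocytes release, was unequal across animals. It stood at 2293 CPM in the adipocyte hexagons of C1, 8702 in A1, 9738 in A2 and 2634 in A3, against 780, 1275, 2115 and 1055 in the other hexagons of the same mice. A1 and A2 were thus high, and A3 lay close to the control mouse. The complement genes C3 and C4b had log2 ratios of 0.75 and 1.45, and for C4b the C1 level of 270 rested on 2 UMIs, against 2223 in A1, 1739 in A2 and 1084 in A3. Apoe, disrupted in these animals but still counted as a transcript, stood slightly lower in adipocyte hexagons (log2 ratio −0.45). Of 12 measured genes of adipocyte transcription and signalling, 6 were at least 2-fold higher, and Pde3b, an insulin-regulated phosphodiesterase, had a log2 ratio of 2.06 on 18 UMIs.

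**Figure D2:**
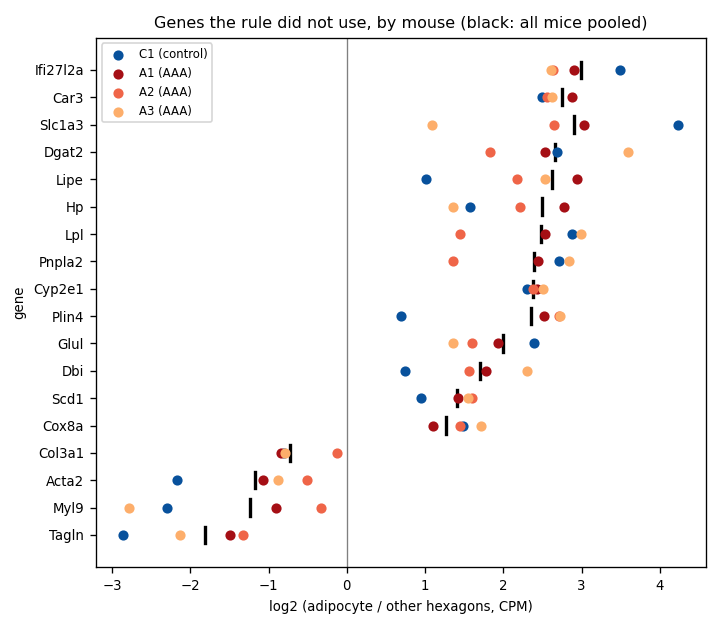
Log2 ratio of CPM in adipocyte over other hexagons (horizontal axis) for 18 genes outside the rule, picked by hand from the named genes. Points are the 4 mice with 50 or more adipocyte hexagons and black bars the pooled ratio of all mice. The 14 upper genes lie above 0 in every mouse shown, and Col3a1, Acta2, Myl9 and Tagln lie below it. This uniform direction belongs to the genes picked. Named genes not shown vary between mice, such as Fasn (−0.02 in C1), Cavin1 (−0.73 in C1) and Igfbp4 (0.42 in A3).

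Mitochondrial genes were higher as a broad, shallow group. All 69 nuclear genes of the respiratory chain were measured, 65 of them stood above a ratio of 1, 20 were at least 2-fold higher and 0 were 2-fold lower. Their summed level in adipocyte hexagons was 64481 CPM in C1, 34099 in A1, 33851 in A2 and 44462 in A3, and 20535 to 25471 in the other hexagons. Cox8a, a subunit of cytochrome c oxidase, had a log2 ratio of 1.27. The antioxidant enzymes differed less, with 4 of 16 at least 2-fold higher and a median log2 ratio of 0.50, among them Gpx3 (0.87) and the glutathione transferase Mgst1 (1.07).

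Among the 6 sections with the most members, genes of brown fat stood highest in the adipocyte hexagons of control section C1-1 and next in AAA section A3-1, and in both they were above the hexagons around them. The brown or beige list stood at 8028 CPM in the adipocyte hexagons of C1-1 against 1931 in its other hexagons, and at 3696 against 668 in A3-1. In A3-1, Cox8b gave 9 of the 19 UMIs of the list and Cox7a1 gave 0. In section C1-1, 40 adipocyte hexagons held 12 UMIs of Ucp1, 11 of Cidea, which coats droplets in brown adipocytes, 13 of Cox8b and 9 of Cox7a1, both subunits of cytochrome c oxidase. Ucp1 (chr8:83290352-83298452, plus strand) stood there at 1927 CPM. The 323 adipocyte hexagons of A1 held 3 Ucp1 UMIs, the 86 of A2 held 0 of 8626 UMIs, which allows up to 348 CPM, and the 60 of A3 held 2. Cox8b was found in A1 (9 UMIs), A2 (3) and A3 (9) as well. It stood at 213, 348 and 1394 CPM there, against 34, 41 and 44 in the other hexagons of these mice. Ucp1 went the other way in A1 (71 against 153) and A2 (0 against 88). The brown or beige list summed to 7285 CPM in C1, 615 in A1, 580 in A2 and 3098 in A3, against 1442, 542, 535 and 605 in the other hexagons. In this sum C1 was highest, A3 second, and A1 and A2 stood near the level of the hexagons around them, although Cox8b alone did not. The respiratory chain sum followed the same order in C1 and A3, with 64868 in section C1-1 and 44747 in section A3-1. With 1 control mouse of useful depth, condition and animal cannot be told apart here, and the difference was not tested.

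**Figure D3:**
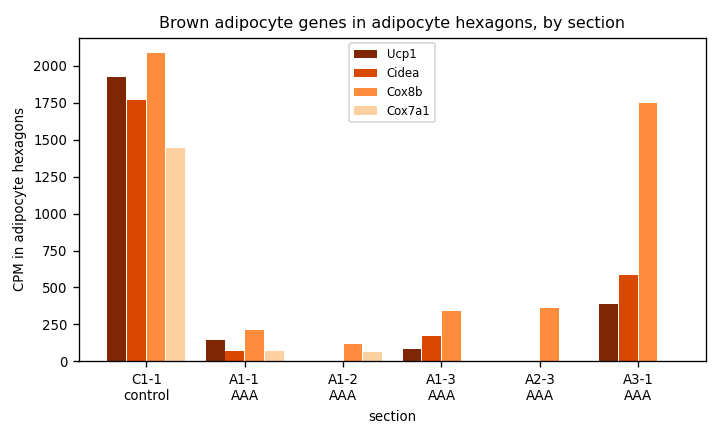
CPM of Ucp1, Cidea, Cox8b and Cox7a1 (vertical axis) in the adipocyte hexagons of the 6 sections with the most of them. Section C1-1 stands at 1445 to 2087 for the 4 genes, and the next highest bar is Cox8b in A3-1 at 1751.

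Markers of smooth muscle, fibroblasts and macrophages were mostly lower. Of 14 smooth muscle markers, 8 were at least 2-fold lower, 0 were higher at any ratio, and 12 were lower in all 4 mice, with 0 UMIs counted as lower. Smooth muscle actin (Acta2) stood at 2563 CPM in C1, 2057 in A1, 2550 in A2 and 3098 in A3, against 11829, 4355, 3725 and 5867 in the other hexagons of those mice. Adipocyte hexagons thus differed little between animals, and the larger ratio in C1 came with a higher Acta2 level around them. Tagln had a log2 ratio of −1.82. Of 16 fibroblast markers 6 were 2-fold lower and 1 was 2-fold higher, and of 17 macrophage markers 8 were 2-fold lower, with medians of −0.81 and −0.89. None of the 4 macrophage markers with the most UMIs in adipocyte hexagons was 2-fold lower. Ctsd had a log2 ratio of −0.39, Ctsb −0.04, Lyz2 −0.49 and C1qc −0.22. In A2, Ctsb and C1qc stood above the other hexagons, at 0.53 and 0.59.

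Endothelial markers and the background differed from this. Gpihbp1, the endothelial anchor of lipoprotein lipase, had a log2 ratio of 2.17 on 21 UMIs, and it was found in A1, A2 and A3 but had 0 UMIs in C1. Pecam1, the general endothelial marker, stood at 0.13. Of 11 endothelial markers, 9 stood above a ratio of 1 and 2 (18.2%) were at least 2-fold higher, against 11.4% of all genes. Their median log2 ratio was 0.67, and they summed to 1405 CPM in adipocyte hexagons and 924 in the others. Only 1 of them was higher in every mouse with 50 or more members. Liver and intestinal transcripts, which the aorta does not make, were found in the adipocyte and the other hexagons of every mouse. The 9 hepatocyte markers summed to 15228 CPM in adipocyte hexagons and 19620 in the others, and Mup20 stood at 2688 and 3237. None of the measured hepatocyte or intestine markers differed by 2-fold. Their part in the values above was not tested.

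The adipocyte hexagons lay in patches. Joining members whose centres lay within 45 µm of each other gave 15 patches of 10 or more in 6 sections, which held 337 members (63.7%), and 68 members (12.9%) stood alone. The largest patch held 67 members, in section A1-3. In A1, 91.6% of members had another within 45 µm, in A2 86.0%, in C1 84.9% and in A3 73.3%, whereas of the other hexagons 14.0%, 10.8%, 14.7% and 5.72% had a member that near. Distance to the nearest contractile hexagon had a median of 83.1 µm for members in A1, 112 µm in A2, and 55.0 µm in C1 and A3. For other hexagons that were not contractile it was 55.0, 62.4, 20.8 and 62.4 µm in A1, A2, C1 and A3. The members were thus farther from contractile hexagons in A1, A2 and C1 but not in A3.

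**Figure D4:**
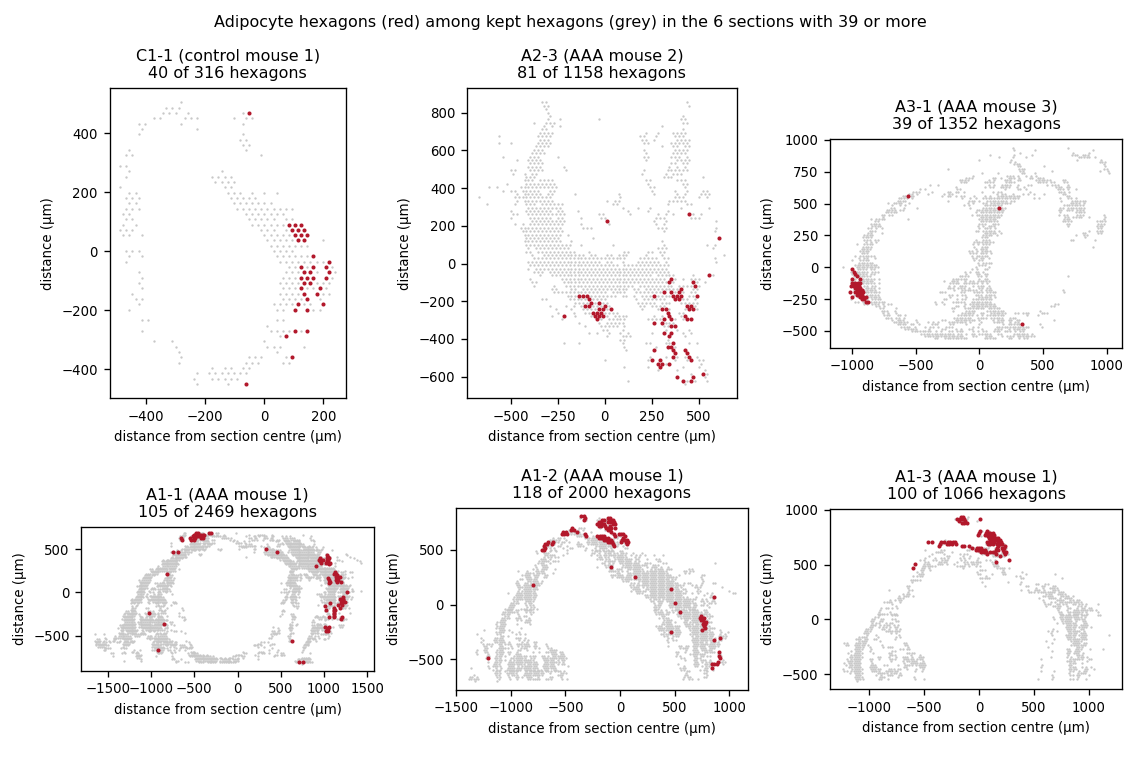
Kept hexagons (grey) and adipocyte hexagons (red) in the 6 sections with the most of them, each placed by its distance in µm from the section's centre. Red hexagons gather in patches, such as the 36 joined members at the left of A3-1 and the patch of 67 at the top of A1-3. Distance to the tissue edge was not measured. The left side of A3-1 borders control section C3-1. Sections were placed with a median absolute residual of 75.3 µm, and the distance of the A3-1 patch from that border is not given.

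Whether the share of adipocyte hexagons differs with aneurysm was asked over mice. This share is not an amount of fat, because the number of kept hexagons differed. It was 657, 389 and 413 in C1, C2 and C3, and 5535, 1961 and 2701 in A1, A2 and A3. Adipocyte hexagons made up 8.07% of kept hexagons in C1, 1.29% in C2, 0.484% in C3, 5.84% in A1, 4.39% in A2 and 2.22% in A3. The mean was 3.28% ± 4.17 in controls and 4.15% ± 1.82 in AAA (SD, n = 3 mice each), a difference of 0.869 percentage points that the spread between mice exceeded (2-sided exact permutation test, p = 0.80, where 0.1 is the smallest this design can give). The groups overlapped, since C1 was above every AAA mouse. Without C2 or without C3 the difference turned to −0.128 and −0.529 points. In C1 and A2 the sections varied about as much as mice did. Section C1-1 held 12.7%, C1-2 held 3.98% and C1-3 held 3.33%. Section A2-3 held 6.99% and A2-2 held 0 of 269 hexagons, which allows a share of up to 1.12%. The other mice varied less, with sections from 4.25% to 9.38% in A1, 0.75% to 2.88% in A3, 0.70% to 2.40% in C2 and 0% to 1.21% in C3.

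**Figure D5:**
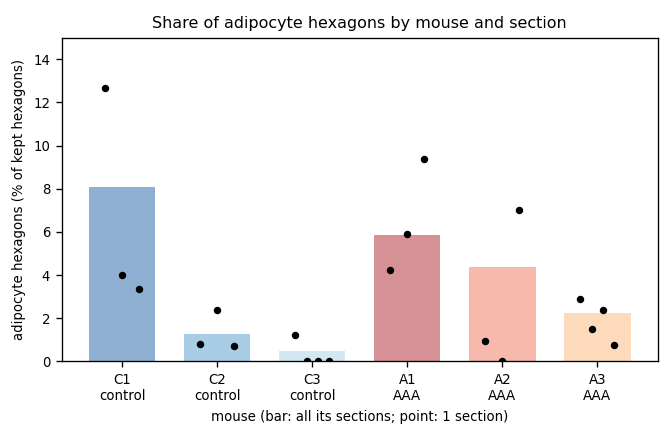
Adipocyte hexagons as a percentage of kept hexagons (vertical axis) in the 3 control and 3 AAA mice. Bars pool the sections of a mouse and points are single sections; C1 reaches 8.07% with 1 section at 12.7%, above A1 at 5.84%.

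Adipocyte hexagons of AAA and control mice were then compared gene by gene. Only 67 genes had enough UMIs for edgeR's quasi-likelihood test with Benjamini-Hochberg adjustment, and at an adjusted p under 0.05 this called 0 higher (background 0.0%) and 0 lower (0.0%). Without adjustment 3 genes were higher and 5 lower at p under 0.05, and DESeq2 also called 0. The gene closest to the threshold with a higher level in AAA was Hp, with a log2 change of 1.73 ± 0.52 (SE) and an adjusted p of 0.0632. Trf, which carries iron, had 1.20 (adjusted p = 0.26), the ribosomal gene Rpl13a 1.31 (0.26), Cox6c −1.25 (0.17) and Glul −1.11 (0.22). Over the 67 genes the median log2 change was 0.15, and 0.02 when scaled by library size alone. Calls appeared in other settings: 1 higher and 3 lower when scaled by library size alone, 2 higher and 4 lower without C3, 0 and 1 without A2, and 2 and 2 without A3. With 277 to 42289 UMIs per mouse, a change in most genes was not detectable at this depth.

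Since 0 of all 67 genes were called, 0 calls in a gene list say nothing about that list. Over all 67 genes, 40 had a higher level in AAA, with a median log2 change of 0.15. The differences of the lists from this median were not tested. Of 6 respiratory chain genes tested 0 were called and 1 had a higher level in AAA, with a median log2 change of −0.64. Of 4 fibroblast markers 0 were called and 3 were higher in AAA, with a median of 0.93. Of 5 white adipocyte genes 0 were called and 0 were higher, with a median of −0.19. The lipid droplet, fatty acid uptake and lipid synthesis lists had 1, 2 and 2 genes tested and 0 called.

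A test of whether the step from other to adipocyte hexagons differed between AAA and control was made over 614 genes. By edgeR's quasi-likelihood test 0 were higher (0.0%) and 0 lower (0.0%) at an adjusted p under 0.05, with 42 and 8 at an unadjusted p under 0.05, and DESeq2 called 0. The median log2 difference was 0.66, and 0.12 when scaled by library size alone, so that each value is to be read against that shift. The lowest p on the positive side belonged to Tns1, Ppa1 and Actn1 (adjusted p = 0.291, 0.291 and 0.487), which had 0 UMIs in the adipocyte hexagons of every control mouse, so their size is not given. On the negative side stood the mitochondrial genes Atp5j2 (−2.03, adjusted p = 0.487), Ndufb5 (−1.86, 0.495) and Hadh (−1.92, 0.495), and without C1 the sign of Atp5j2 and Hadh turned. Without C1, 15 genes were called higher, all set against 7 hexagons of C2 and C3.

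Hexagons next to fat were compared with those farther away. This set the 1201 hexagons outside the rule but within 45 µm of a member against the other 9926, within mice. Of 386 genes tested by edgeR, 12 were higher (3.11%) and 6 lower (1.55%) near fat at an adjusted p under 0.05, around a median log2 change of −0.04. The 12 included genes known from fat cells. Hp rose by 1.10 ± 0.20 on the log2 scale (SE, adjusted p = 1.57e-05), Lpl by 1.18 ± 0.22 (2.65e-05), Glul by 1.20 ± 0.24 (6.59e-05) and Pnpla2 by 1.24 ± 0.30 (0.00193). Car3 (0.98), Cd36 (0.97), Ppa1 (0.95), Cox6a1 (0.82) and Dbi (0.77) rose as well. In C1, A1, A2 and A3, 11 of the 12 were higher near fat in every animal, the exception being Hp, which was lower near fat in C1, and all 6 of the lower genes were lower in every one of them. All 3 fatty acid uptake genes tested were called higher, as were 2 of 5 white adipocyte and 2 of 22 respiratory chain genes.

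Of the 6 genes that were lower near fat, only Gpnmb belonged to one of the gene lists. Ltbp2, a matrix protein that binds microfibrils, fell by 1.40 ± 0.31 on the log2 scale (SE, edgeR adjusted p = 0.000698), and Gpnmb, a glycoprotein of lipid-laden macrophages, fell by 1.22 ± 0.29 (0.00197). The others were the actin crosslinker Actn1 (−1.05), the non-coding RNA Bc1 (−1.01), the growth factor Ccn2 (−0.80) and elastin (Eln, −0.70). None of 9 smooth muscle and 12 fibroblast markers was called, which is near the share over all genes, where 6 of 386 (1.55%) were called lower. Their medians were −0.39 and −0.22, and 1 and 3 of them were higher near fat, against 165 of all 386 genes. Of 6 macrophage markers 1 was called, Gpnmb, and 0 were higher, with a median of −0.34.

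The result depended on hexagons that held some rule-gene UMIs and on mouse A2. Near hexagons held at least 1 rule-gene UMI in 63.5% of cases in A2, 52.8% in C1, 42.4% in A3 and 37.2% in A1, against 19.6% to 25.4% of far hexagons in these mice. Among hexagons with 0 rule-gene UMIs, a set chosen after seeing the data, 0 of 297 genes were called by edgeR (6 higher and 11 lower at an unadjusted p under 0.05), although 13 of the 14 calls that could be tested there kept their sign. Without A2 the counts were 0 and 0 (10 and 17 unadjusted), although 15 of 15 calls that could be tested kept their sign. Leaving out C1 gave 7 higher and 4 lower, C3 15 and 3, and A3 5 and 2. DESeq2 called 1 higher and 1 lower. With no filter on low counts 19284 genes were tested, their median log2 change moved to −0.86, 0 were called higher and 7 lower, and Hp stood at −0.18, Cox6a1 at −0.13 and Dbi at −0.25, all above that median.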

How the data were processed

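Suprarenal aortas were embedded in pairs of 1 control and 1 AAA vessel, cut at 10 µm and placed on a Seq-Scope array. The authors deposited counts of UMIs per gene and barcode, pooled over 2 libraries with no map from barcode to library, made with STARsolo 2.7.5c on mm10 per the labels. The deposited matrix has 5 count columns without names. The first, taken as exonic, summed to 8672204 UMIs, and the second, taken as whole-gene, was an alternative. The authors also used Seurat 4. No genome coordinates were converted, and those printed come from GENCODE vM21 (GRCm38).

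Barcode positions of lane 2 were scaled to the study's section outlines (26.6 units per µm, median absolute residual 75.3 µm over 40 outline edges). Genes whose symbol starts with mt or Gm were dropped (8551 of 32285). Exonic counts were summed in hexagons, and those with 50 or more genes were kept. No doublet caller was run. Sections were assigned by the study's drawn names and not by sample labels, which give no mouse. The adipocyte hexagons, gene lists and tests were chosen with earlier results of these data known.

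Equal mouse numbers were taken as 1 embedded pair, since these sections lie side by side (deviations from the group means correlated at 0.12, −0.13 and −0.21). The pair block was an alternative. UMIs were summed per mouse. The share of hexagons was compared by 2-sided exact permutation over 3 against 3 mice. Sums without the 6 rule genes entered the quasi-likelihood test of edgeR 4.0.16 after filterByExpr and TMM scaling, with Benjamini-Hochberg adjustment over all tested genes at 0.05, and with the mouse as a term in the interaction and the near comparison. DESeq2 1.42.0 with the poscounts size factors was an alternative. The SE was taken as the log2 change over the square root of F. Ratios of adipocyte over other hexagons had 0.5 UMIs added to both sums. The scripts were tested on simulated data.

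Named genes were the 6 rule genes, up to 4 genes of each list by UMIs in adipocyte hexagons, up to 15 genes by pooled ratio (30 or more UMIs, higher in 5 of 6 mice), and up to 10 called genes each way per test, or the 3 of lowest p where none was called. A gene that the rule named is not reported here. Intervals cover counting error only. The permutation p-value measures the spread between these animals. The edgeR p-values rest on an estimate of spread that borrows across genes. They therefore do not measure the spread of each gene between animals alone, and Hp had the lowest p near fat although it was lower there in C1.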

Additional observations from a re-analysis of the deposited data

Results flagged for a closer look

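Section C1-1 held 12.7% adipocyte hexagons, far above the other 9 control sections (the gap to the next was 0.69 of the whole range, past the 95% critical value of Dixon for 10 sections), and chance sets apart about 1 in 20 such groups. Its sections share a mouse with C1-2 and C1-3, so the 10 are not independent.

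In 4 named genes the CPM of adipocyte hexagons was below that of other hexagons in all 3 control mice and above it in all 3 AAA mice. The pooled log2 ratios were 1.05 for Adipor2, an adiponectin receptor, 1.45 for C4b, 1.58 for Ppa1, a pyrophosphatase, and 0.42 for Trf. In C2 and C3 these genes had 0 UMIs in adipocyte hexagons, apart from 1 UMI of Trf in C2, and in C1 they had 1, 2, 0 and 15 UMIs. With 434 and 283 UMIs in all in the adipocyte hexagons of C2 and C3, 0 UMIs gives no direction there, and with 0.5 UMIs added to both sums the log2 ratios of Adipor2 in C2 and C3 were 1.93 and 2.50, and that of C4b in C1 was 0.26. The edgeR test of the difference gave adjusted p values of 0.548, 0.593, 0.291 and 0.495.

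Tissue on the same array outside the sections also met the rule. Left of the first section 39 of 2601 hexagons (1.50%, 95% Wilson interval 1.10% to 2.04%) held 3 or more rule-gene UMIs. The median depth over all hexagons there was 114 UMIs, against 76 over all kept hexagons of the sections. The depth of the 39 alone is not given, and its part in reaching 3 UMIs was not tested. The next values are for these 39 hexagons. Their lipid and white adipocyte genes stood at 12412 CPM, against 49089 in adipocyte hexagons of the sections, and below the 13813 of section hexagons with no rule-gene UMI. On lane 1, 0 of 15015 hexagons met the rule, which allows a share of up to 0.0200%.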

How the results depend on the processing

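With 3 mice against 3 the share test cannot pass the threshold in any setting, so its p says nothing about stability. The difference of 0.869 points turned to −0.128 without C2 and −0.529 without C3, with a range of −0.529 to 3.26 when each mouse was left out. With a replicate block on the pair number it was 0.869 (exact sign flips, p = 0.75, where 0.25 is the smallest possible), and the block called 0 higher and 0 lower genes between AAA and control adipocyte hexagons, so that it changed no call.

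Between AAA and control adipocyte hexagons, genes called higher and lower were 1 and 3 by library size only, 1 and 1 at 75 or more genes, 1 and 1 with library sizes over all genes, and 2 and 2 at 2 or more marker UMIs. Leaving out a mouse gave 0 to 2 and 0 to 4, with Glul at −1.20 to 0.00067, highest without C1. With no low-count filter Cox6c turned to 0.38 and Glul to 0.43. For the interaction, library size only gave 1 and 4, 75 or more genes gave 1 higher, and leaving out a mouse gave 0 to 15 and 0, with Atp5j2 at −2.36 to 8.36 and Hadh at −2.10 to 8.08, both highest without C1.

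Near fat, genes called higher and lower were 1 and 1 by DESeq2, 0 higher with no low-count filter, 2 and 1 at 75 or more genes, 23 and 0 for counts over whole genes, and 6 and 1 in AAA mice only. They were 0 and 0 among hexagons with 0 marker UMIs, where Car3 was at −0.00245. Library size only gave 3 lower and 90 µm 3 lower, and leaving out a mouse gave 0 to 15 and 0 to 7. With no low-count filter Hp was at −0.18, Cox6a1 at −0.13 and Dbi at −0.25, while the median of all genes moved to −0.86. Of 18 calls, 10 were shared at 90 µm, 9 with whole genes and 2 with DESeq2. The cause was not tested.

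Genes 2-fold higher and 2-fold lower in adipocyte hexagons numbered 466 and 574 at 75 or more genes, 452 and 554 at 2 or more marker UMIs, and 1803 and 2544 over whole genes, where 16069 genes were counted, and 593 to 742 and 648 to 915 when each mouse was left out. The alternatives for this ratio, library sizes over all genes and hexagons with 0 marker UMIs were chosen after seeing the data.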

Other observations

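Within mouse A1 the 3 sections differed in the levels of fat genes in their adipocyte hexagons. The lipid and white adipocyte genes stood at 40165 CPM in A1-1, 50142 in A1-2 and 58803 in A1-3. Fibroblast markers stood at 20189, 18886 and 13220 in the same sections, and Hp at 5047, 9775 and 11589. Cfd stood at 35118, 44108 and 49103. Section A1-3, which held the largest patch, had the highest level of fat genes and the lowest of fibroblast markers. These are 3 sections of 1 animal, and the differences were not tested.

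Retn, the resistin gene, gave 83 UMIs in adipocyte hexagons, and its level was 270 CPM in C1 (2 UMIs), 1182 in A1, 1507 in A2 and 2324 in A3. Macrophage markers in the same hexagons summed to 2833, 5723, 7072 and 4493 CPM.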
